A study of Mus musculus with 6 samples.

Results

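A group of 10 genes of tumour necrosis factor (TNF) signalling and necroptosis was followed in mouse BMDM, macrophages that were derived from bone marrow. The genes were chosen by symbol: Tnf, Adam17, Tnfrsf1a, Tnfrsf1b, Traf1, Traf2, Ripk1, Ripk3, Mlkl and Tnfaip2. All 10 were found among the 55291 genes of the deposited table. All 10 also passed the filter on low values, which left 12603 genes. The study compared 3 libraries of untreated BMDM with 3 of BMDM pretreated with apoptotic cells (AC), all from poly(A) RNA. The labels name neither mouse strain nor genotype, and for the AC neither their source nor a dose or time. Whether replicates were separate cultures or animals is not labelled, so the spread behind each p-value may be technical.

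TNF is made as a membrane protein and released when the protease ADAM17 cuts it at the cell surface. Macrophages are a main source of it. Its receptors TNFR1, encoded by Tnfrsf1a, and TNFR2, encoded by Tnfrsf1b, recruit TRAF adaptors, and TNFR1 also brings in the kinase RIPK1, from which NF-kB signalling or cell death can start. When caspase-8 is blocked, RIPK1 and RIPK3 bind each other through a shared motif (RHIM), and RIPK3 phosphorylates MLKL, which breaks the plasma membrane in the form of death called necroptosis.

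The libraries held between 19349048 and 32686132 reads on genes. A level in TPM is a gene's reads per base of exon, as a share of the library's total, scaled so that each library sums to 1000000. Where 3 values are listed for a group, they are those of replicates 1, 2 and 3 in that order. All 8 macrophage markers were present, and summed to 16223 to 24550 TPM in the untreated and 22468 to 26354 TPM in the AC libraries. In untreated replicate 1 the lysozyme gene Lyz2 had 83.7 TPM, against 9270 to 12451 TPM in the other libraries. Lyz2 is among the 8 markers summed, and the cause of its low value there was not tested. Of the T cell markers, 7 of 7 were below 1 TPM in every library, and Cd3d and Cd2 were at 0. Summed markers of neutrophils lay at 23.4 to 54.4 TPM in the untreated and 25.0 to 41.7 TPM in the AC libraries, and those of endothelial cells at 17.7 to 26.2 and 11.4 to 30.3 TPM. The 4 epithelial markers, with Epcam at 0, summed to 0.650 to 1.56 TPM in the untreated and 2.04 to 4.70 TPM in the AC libraries, without overlap. Markers of B cells, dendritic cells and fibroblasts overlapped between the groups, at sums of up to 4.21, 13.4 and 1.16 TPM. The part of these cells in the results was not tested. Of 15 placental transcripts, 1 was at 0 in every library. The others summed to 15.3 to 139 TPM in replicates 1 and 2 of both groups and to 0 in both replicates 3. Differences are therefore also given within these sets of 4 and 2 libraries, whose part in the results was not tested. In bulk RNA, fewer cells of a type and less RNA per cell cannot be told apart.

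None of the 10 genes passed the test between the groups. By limma-trend (Benjamini-Hochberg adjustment over all genes tested) 0 of 10 passed at an adjusted p under 0.05, each with an adjusted p of 1, and 0 of 12603 genes (0%) passed. At an unadjusted p under 0.05 there were 0 of the 10 and 164 of all genes (1.3%). With limma-voom on recovered reads 0 of all genes passed and 98 (0.79%) had an unadjusted p under 0.05. Each log2 difference is the mean log2(TPM + 1) of the AC libraries minus that of the untreated ones, with its SE, and understates changes of low genes. They ran from -0.22 for Tnf to 0.29 for Tnfaip2, with a median of -0.10 against -0.07 over all genes. Means were lower after AC pretreatment for 8 of the 10 and for 70.6% of all genes. With median-of-ratios scaling, which moved the median of all genes to -0.008, they were lower for 7 of the 10 and for 52.4%. The 95% interval of the difference lay inside 2-fold for 10 of 10 genes (87.4% of all genes) and inside 1.5-fold for 7 of 10 (46.1% of all genes). The 3 exceptions were Tnf, Adam17 and Tnfaip2.

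**Figure D1:**
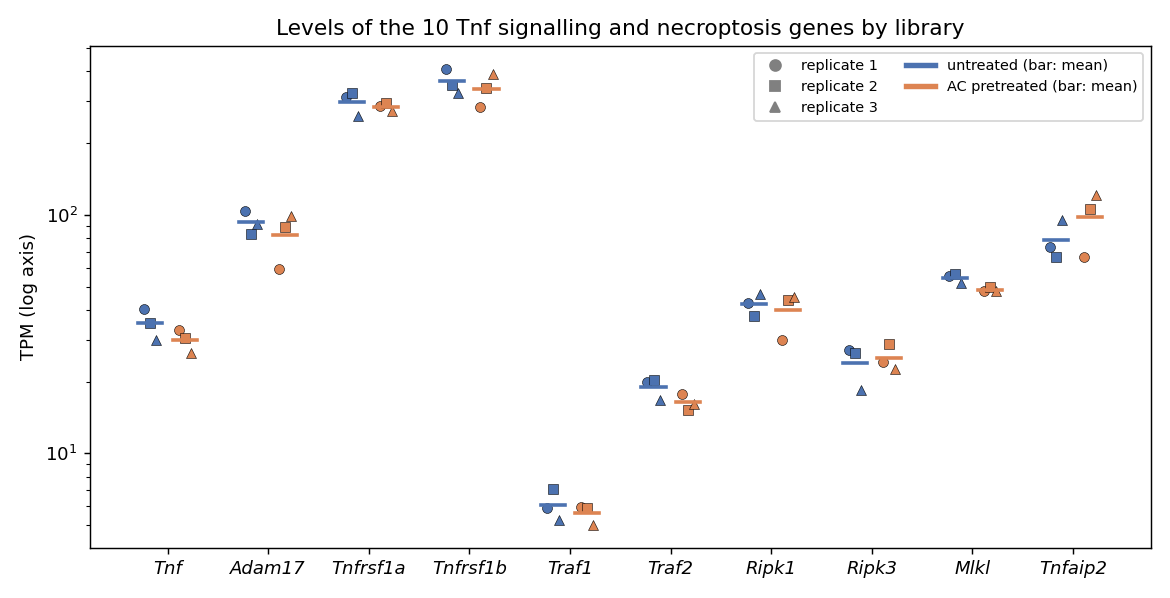
Level of each of the 10 genes in TPM (log axis) in the 3 untreated (blue) and 3 AC pretreated (orange) libraries; symbols give the replicate number and bars the group mean. The receptor genes Tnfrsf1a and Tnfrsf1b lie highest, between 259 and 409 TPM, Traf1 lowest, and the groups overlap for every gene but Mlkl.

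**Figure D2:**
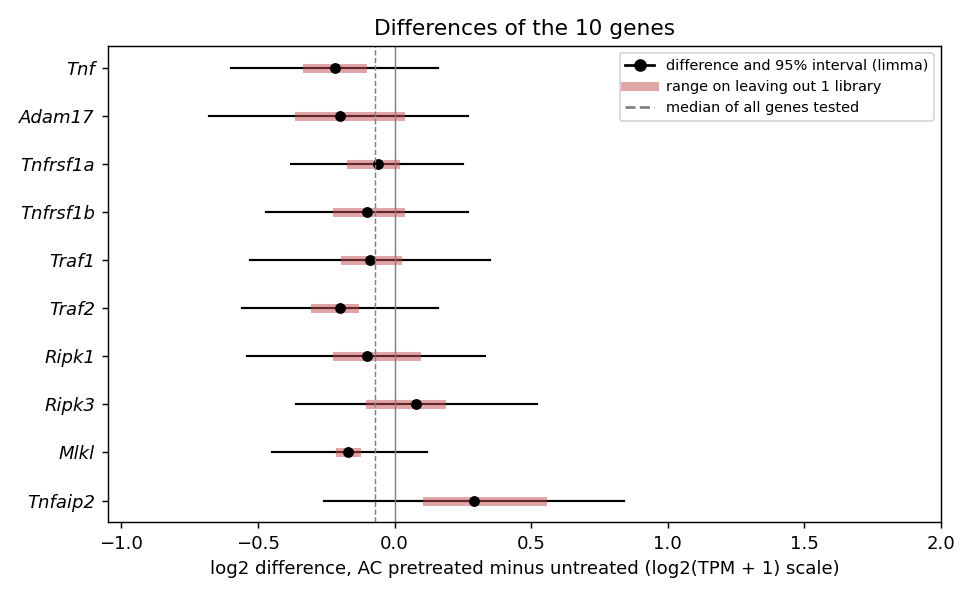
Log2 difference of each gene (AC pretreated minus untreated, log2(TPM + 1) scale; points) with its 95% limma interval (black) and the range on leaving out 1 library (red). Every interval spans 0, and the dashed line marks the median of all genes tested, -0.07.

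Tnf (ENSMUSG00000024401.14, chromosome 17, 35199381 to 35202007 on the minus strand of mm10) was measured at 40.2, 35.1 and 29.9 TPM in the untreated libraries. After AC pretreatment it stood at 33.0, 30.5 and 26.4 TPM. The ranges overlapped: untreated replicate 3 lay below AC replicates 1 and 2. In group means this was 35.1 ± 5.16 and 30.0 ± 3.34 TPM (SD, n = 3 each), a log2 difference of -0.22 ± 0.17 with a 95% interval of -0.60 to 0.16. Within the sets of 4 and 2 libraries it was -0.24 and -0.17, and it was -0.12 without untreated replicate 1 and -0.13 without AC replicate 3. Tnf was thus lower after AC pretreatment in both sets, the smaller of which only sets AC replicate 3 against untreated replicate 3. Over all genes the medians in these sets were -0.13 and 0.05. Tnf rested on 301 to 624 reads per library.

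The sequence of Tnf carries a pair of features known to set its transcript level, a start site with a TATA box and a run of AU-rich elements by which decay factors bind the transcript. Both are shown because Tnf encodes the ligand of the pathway. The 250 bases before the RefSeq start of Tnf (build GRCm38.p6, chr17:35202008-35202257, minus strand) are printed with matches to searched motifs in capitals, and below them 29 bases of the AU-rich region (GRCm38, chr17:35199681-35199709, minus strand), from base 436 of the 3′ untranslated region, with the nonamer TTATTTATT in capitals.
Tnf promoter: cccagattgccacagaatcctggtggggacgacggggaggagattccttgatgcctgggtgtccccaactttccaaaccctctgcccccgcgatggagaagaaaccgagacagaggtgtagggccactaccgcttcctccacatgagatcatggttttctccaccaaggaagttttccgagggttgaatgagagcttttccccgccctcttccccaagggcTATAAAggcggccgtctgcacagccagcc
Tnf AU-rich region: taTTATTTATTATTTATTTATTATTTATT

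Short motifs were searched on both strands of the 250 bases before the start sites: a kappaB motif (GGGNNTTTC), TATAAA, an interferon-response core (GAAANNGAA), the STAT site TTCNNNGAA, the AP-1 site TGANTCA and the CCAAT box. Of 32851 mouse promoter windows, 3.7%, 12.4%, 7.1%, 7.0%, 6.7% and 33.8% held them, in that order. The Tnf window held TATAAA 29 to 24 bases before the start, and no other member's window held it. The kappaB and AP-1 letters were in none of the windows of the 10 genes. The STAT letters were in those of Tnfrsf1a, Tnfrsf1b and Ripk1, and the interferon-response core in that of Tnfrsf1b. In Tnfrsf1b the STAT letters lay 181 to 173 and the core 9 to 1 bases before the start, without overlap. The CCAAT letters were in those of Traf1 and Tnfaip2. In the 3′ untranslated region, Tnf held 5 overlapping copies of the nonamer, of which 4 lie in the site printed, and Ripk1 held 2. None was in those of the other 8 genes. Among 20937 genes, 7.6% held at least 1. A match is a description of letters and shows no binding.

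Adam17 (chromosome 12, 21323509 to 21373632), the gene of the protease that sheds TNF, stood at 104, 83.1 and 91.8 TPM in the untreated libraries. In the AC libraries it stood at 59.0, 89.2 and 98.6 TPM. AC replicate 1 was alone below all others, and the remaining AC libraries lay within the untreated range. The means of 93.1 ± 10.7 and 82.3 ± 20.7 TPM (SD, n = 3 each) gave a log2 difference of -0.20 ± 0.21 (95% interval -0.68 to 0.27). Without AC replicate 1 it was 0.02. The sets of 4 and 2 libraries gave -0.36 and 0.10, so its direction turned between them. The gene Iah1, at up to 40.7 TPM, overlaps the Adam17 span on the opposite strand. The strand setting of the counts is unknown here, so reads of any shared exons cannot be told apart.

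The receptor genes were the most abundant of the 10, above 95.9% and 96.6% of the genes tested for Tnfrsf1a and Tnfrsf1b. Tnfrsf1a (chromosome 6, 125349362 to 125362484), whose protein carries a death domain, stood at 310.0, 325 and 259 TPM in the untreated and at 286, 294 and 271 TPM in the AC libraries. All AC values lay within the untreated range. The means were 298 ± 34.3 and 284 ± 11.6 TPM, a log2 difference of -0.06 ± 0.14 (95% interval -0.38 to 0.25), which became 0.00 without untreated replicate 2 and 0.01 with median-of-ratios scaling. The sets of 4 and 2 libraries gave -0.13 and 0.07.

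Tnfrsf1b (chromosome 4, 145213463 to 145246870), the gene of the receptor without a death domain, stood at 409, 351 and 325 TPM in the untreated and at 284, 341 and 388 TPM in the AC libraries. The lowest value was again that of AC replicate 1 and the highest that of untreated replicate 1. With means of 362 ± 43.1 and 338 ± 51.9 TPM, the log2 difference was -0.10 ± 0.16 (95% interval -0.47 to 0.27), and 0.02 without AC replicate 1. The sets of 4 and 2 libraries gave opposite signs, -0.28 and 0.25. The level of Tnfrsf1b over that of Tnfrsf1a was 1.32, 1.08 and 1.25 in the untreated and 0.99, 1.16 and 1.43 in the AC libraries. AC replicates 1 and 3 thus held both the lowest and the highest balance of the receptors, with group means of 1.22 ± 0.12 and 1.19 ± 0.22 (SD, n = 3 each).

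The adaptor genes had the lowest mean levels, with merged exons as the length. Traf1 (chromosome 2, 34941750 to 34961772), an NF-kB-induced adaptor that joins TRAF2 at TNFR2, stood at 5.93, 7.08 and 5.24 TPM in the untreated and at 5.98, 5.91 and 5.02 TPM in the AC libraries. In both groups replicate 3 was lowest. Its means of 6.08 ± 0.929 and 5.64 ± 0.534 TPM gave a log2 difference of -0.09 ± 0.19 (95% interval -0.53 to 0.35), and 0.01 without untreated replicate 2. Differences were -0.11 and -0.05 in the sets of 4 and 2 libraries. Traf2 (chromosome 2, 25517982 to 25546940), whose protein recruits the ubiquitin ligases cIAP1 and cIAP2, stood at 19.9, 20.4 and 16.7 TPM in the untreated and at 17.8, 15.2 and 16.1 TPM in the AC libraries. The groups overlapped only through untreated replicate 3 and AC replicate 1. Means were 19.0 ± 2.01 and 16.4 ± 1.31 TPM, a log2 difference of -0.20 ± 0.16 (95% interval -0.56 to 0.16). This was -0.28 among the 4 libraries and -0.05 between the other 2. Traf2 was at 2.57 to 3.36 times the level of Traf1, over all 6 libraries. Merged exons of Traf1 span 8819 bases against 3436 for its longest coding transcript, and those of Traf2 5101 against 3044. The TPM of both, which is divided by length, therefore depends on the length chosen, as does their rank.

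Of the death kinases, Ripk1 (chromosome 13, 34002363 to 34037147), which serves both survival and death signalling, stood at 42.6, 37.7 and 46.4 TPM in the untreated and at 30.0, 43.8 and 45.4 TPM in the AC libraries. As for Adam17, only AC replicate 1 lay below the untreated range. The means were 42.2 ± 4.32 and 39.7 ± 8.47 TPM, and the log2 difference of -0.10 ± 0.19 (95% interval -0.54 to 0.33) was 0.08 without that library. It was -0.14 and -0.03 in the sets of 4 and 2 libraries. The span of Ripk1 overlaps Serpinb6a on the opposite strand, which reached 515 TPM, and the same limit applies. Ripk3 (chromosome 14, 55784995 to 55788865), the kinase that phosphorylates MLKL, stood at 27.1, 26.3 and 18.4 TPM in the untreated and at 24.1, 28.8 and 22.5 TPM in the AC libraries. Untreated replicate 3 was lowest and AC replicate 2 highest. Its means of 23.9 ± 4.78 and 25.1 ± 3.27 TPM gave a log2 difference of 0.08 ± 0.19 (95% interval -0.36 to 0.52), which was -0.09 without untreated replicate 3 and -0.02 without AC replicate 2. In the sets of 4 and 2 libraries it was -0.02 and 0.27.

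Mlkl (chromosome 8, 111311797 to 111338177), the executioner of necroptosis, was the 1 gene of the 10 whose groups did not overlap. It stood at 55.2, 56.6 and 51.9 TPM in the untreated and at 48.0, 49.6 and 47.9 TPM in the AC libraries. Every AC library lay below every untreated one, with means of 54.6 ± 2.39 and 48.5 ± 0.950 TPM (SD, n = 3 each) and a mean after AC pretreatment of 0.889 times the untreated one. Among all genes 439 of 12603 (3.48%) were lower without overlap and 118 (0.936%) higher without overlap. The 1 gene among the 10 cannot be told apart from these shares. The log2 difference of -0.17 ± 0.13 (95% interval -0.45 to 0.12) had an unadjusted p of 0.221 and an adjusted p of 1 by limma. An exact permutation test of TPM gave p = 0.1 (2-sided), the smallest that 3 against 3 allows. Any gene whose groups do not overlap gets this value, so it adds no support. Leaving out 1 library moved the difference only from -0.20 to -0.14, and it was -0.19 and -0.11 in the sets of 4 and 2 libraries. With median-of-ratios scaling it was -0.10.

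Mlkl had a coefficient of variation of 4.38% in untreated and 1.96% in AC pretreated libraries, against 20.0% and 13.1% for Ripk3. For Ripk1 it was 10.2% and 21.3%. Each value rests on 3 libraries, and a difference in spread was not tested. Mlkl held 764 to 1412 reads per library and Ripk3 270 to 654. The level of Mlkl over that of Ripk3 was 2.04, 2.15 and 2.82 in the untreated and 1.99, 1.73 and 2.14 in the AC libraries, and the high value of untreated replicate 3 goes with its low Ripk3. The window before the RefSeq start of Mlkl (GRCm38.p6, chr8:111338206-111338455, minus strand) is printed because Mlkl was the gene without overlap. It held none of the motifs searched and is 50.8% G and C, against a median of 52.4% over all windows.
Mlkl promoter: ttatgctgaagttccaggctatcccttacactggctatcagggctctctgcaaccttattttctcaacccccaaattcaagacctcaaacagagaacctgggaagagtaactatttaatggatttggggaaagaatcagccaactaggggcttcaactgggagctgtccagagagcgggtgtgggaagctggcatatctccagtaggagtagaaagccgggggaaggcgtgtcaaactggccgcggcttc

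Tnfaip2 (chromosome 12, 111442469 to 111455018), a TNF-induced gene whose protein takes part in forming membrane tubes between cells, had the highest difference of the 10. It stood at 73.0, 66.8 and 94.7 TPM in the untreated and at 66.3, 106 and 120.4 TPM in the AC libraries. AC replicates 2 and 3 lay above every untreated library, and AC replicate 1 lay below all of them. The means were 78.1 ± 14.7 and 97.6 ± 28.0 TPM, with a log2 difference of 0.29 ± 0.24 (95% interval -0.26 to 0.84) and an unadjusted p of 0.261. Without AC replicate 1 the difference was 0.54, with an unadjusted p of 0.0178 where 6.34% of genes were under 0.05, and an adjusted p of 0.776 by limma. Among the other omissions it fell as low as 0.12, without AC replicate 3. It was 0.26 and 0.34 in the sets of 4 and 2 libraries. Of the 10 genes, Tnfaip2 moved most when 1 library was left out, from 0.12 to 0.54.

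The window before the RefSeq start of Tnfaip2 (GRCm38.p6, chr12:111442411-111442660, plus strand) is also printed, since Tnfaip2 had the highest difference of the 10. Ripk3 also had a positive difference, 0.08, and none of the 10 passed the test. A link between windows and differences was not tested. The Tnfaip2 window is 65.6% G and C and held the CCAAT box (in capitals, on the opposite strand, 177 to 173 bases before the start) and no TATAAA.
Tnfaip2 promoter: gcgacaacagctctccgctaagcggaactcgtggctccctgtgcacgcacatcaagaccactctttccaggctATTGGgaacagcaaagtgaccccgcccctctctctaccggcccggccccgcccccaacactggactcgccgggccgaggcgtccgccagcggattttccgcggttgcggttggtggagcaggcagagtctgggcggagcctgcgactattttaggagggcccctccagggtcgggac

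Levels kept nearly the same order in both groups. From high to low the untreated means ran Tnfrsf1b, Tnfrsf1a, Adam17, Tnfaip2, Mlkl, Ripk1, Tnf, Ripk3, Traf2 and Traf1, and after AC pretreatment Tnfaip2 and Adam17 changed places. In untreated libraries the values overlapped between the neighbours Adam17 and Tnfaip2, Ripk1 and Tnf, and Ripk3 and Traf2, which therefore have no clear order. After AC pretreatment they overlapped between Tnfrsf1b and Tnfrsf1a, Tnfaip2 and Adam17, Ripk1 and Tnf, and Tnf and Ripk3. The other neighbours did not overlap, but the order rests on merged exon length, with the limit given for Traf1 and Traf2.

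The library with the lowest value differed among the 10 genes. AC replicate 1 held the lowest value for 4 genes (Adam17, Tnfrsf1b, Ripk1 and Tnfaip2), AC replicate 3 for Tnf, Traf1 and Mlkl, untreated replicate 3 for Tnfrsf1a and Ripk3, and AC replicate 2 for Traf2. Over all genes tested, 47.0% were lowest in AC replicate 1. In AC replicate 1, against the mean of the other 5 libraries on the log2 scale, Adam17 (7154 merged exon bases) stood at -0.65 and Ripk1 (8344 bases) at -0.51. Tnfaip2 (4984 bases) stood at -0.44 and Tnfrsf1b (3818 bases) at -0.35. Tnf, at 1639 bases, stood at 0.04. Merged exon length did not separate the 4 low genes from the rest: Traf1 and Traf2, at 8819 and 5101 merged bases, stood at 0.04 and 0.02. Over all genes of at least 5 TPM on average, the median of the same difference was 0.18 for 1642 genes under 2000 bases, -0.12 for 3982 genes from 2000 to under 5000 bases and -0.46 for 3587 genes of 5000 bases and over. AC replicate 3 ran the other way, at -0.23, -0.04 and 0.22, and the untreated libraries stayed between -0.01 and 0.15. The part of transcript length in the values of these genes was not tested.

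**Figure D3:**
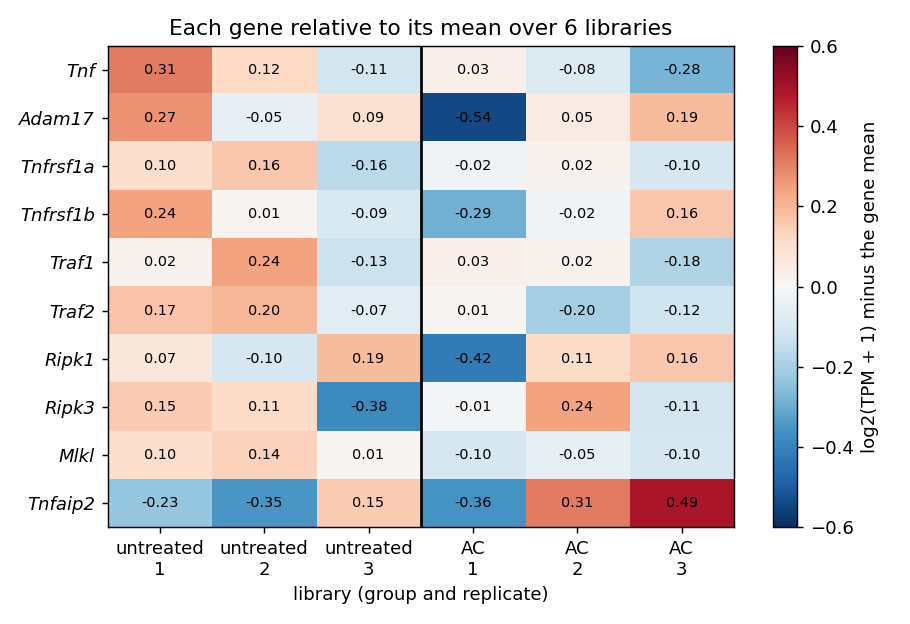
Each gene's log2(TPM + 1) minus its own mean over the 6 libraries, in log2 units (red above, blue below). Adam17, Ripk1, Tnfrsf1b and Tnfaip2 are low in AC replicate 1 (-0.29 to -0.54), while Tnf, Traf1 and Mlkl are lowest in AC replicate 3.

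**Figure D4:**
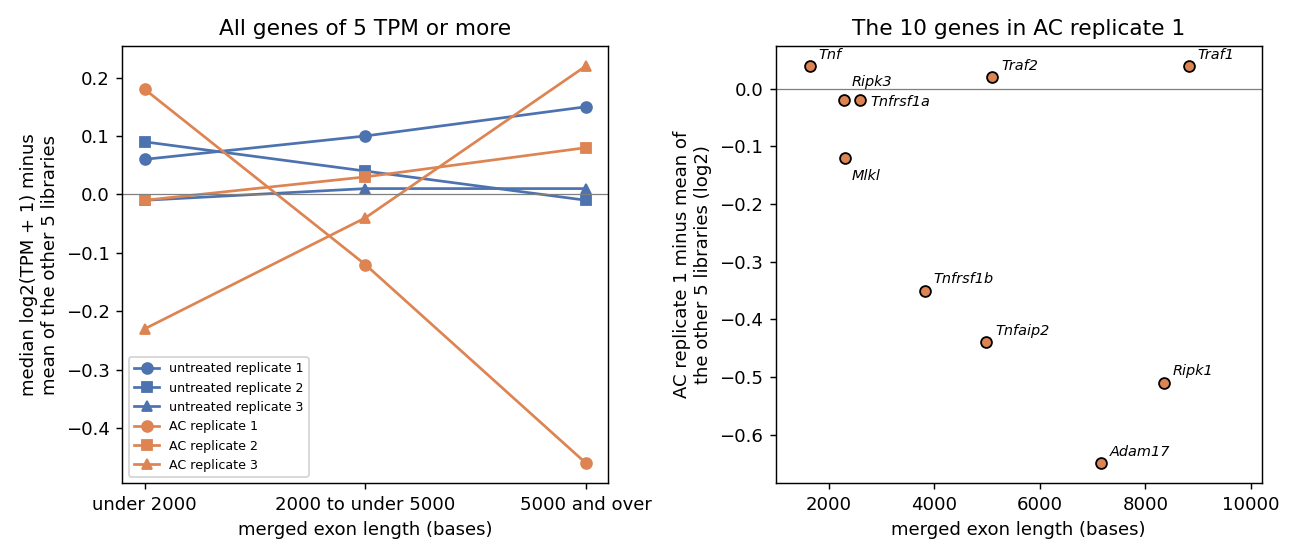
Left, the median log2 difference of each library from the mean of the other 5 in 3 classes of merged exon length (bases), over genes of at least 5 TPM; right, the same difference in AC replicate 1 for the 10 genes against merged exon length. AC replicate 1 falls from 0.18 to -0.46 with length and AC replicate 3 rises from -0.23 to 0.22; Traf1 and Traf2 do not follow the fall.

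Further genes of the pathway were taken by role from 5 lists of 76 genes, of which 70 passed the filter. By limma 0 of the 70 passed over all genes, and 0 had an unadjusted p under 0.05 (1.3% of all genes). Lower means after AC pretreatment were found for 53 (75.7%, against 70.6% of all genes) and higher means for 17, with a median of -0.10 against -0.07 over all genes. Groups did not overlap for 1 gene with higher and 3 genes with lower values in the AC libraries (0.936% and 3.48% of all genes), each named below. With median-of-ratios scaling 41 of the 70 were lower (58.6%, against 52.4% of all genes). Without AC replicate 1 there were 39 (55.7%, against 47.7% of all genes). In the sets of 4 and 2 libraries the median was -0.17 and 0.13, and over all genes -0.13 and 0.05.

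Genes that act for or against release of TNF or decay of its transcript had 9 of 11 members tested, 6 lower and 3 higher. Zfp36, which encodes tristetraprolin, a protein that binds AU-rich elements such as those printed for Tnf and speeds decay of the transcript, was the gene of this list whose groups did not overlap. It stood at 207, 209.9 and 196 TPM in the untreated and at 214, 228 and 239 TPM in the AC libraries. The lowest AC value lay above the highest untreated one, with a log2 difference of 0.15 ± 0.12 (95% interval -0.13 to 0.43, adjusted p of 1 by limma), where 0.936% of all genes were higher without overlap. For Zfp36 the sets of 4 and 2 libraries gave 0.08 and 0.28. Mapkapk2, whose kinase stabilises the Tnf transcript, averaged 309 ± 19.7 and 279 ± 17.7 TPM. Sppl2b, the gene of a protease that cuts the membrane stub of TNF, averaged 27.1 ± 6.86 and 23.4 ± 2.97 TPM.

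In the receptor complex and its kinases all 18 members were tested, with 15 lower and 3 higher, and 11 lowest in AC replicate 1. Map3k5, a stress kinase gene, had the smallest unadjusted p of the list, 0.165, with means of 9.41 ± 0.792 and 7.44 ± 1.99 TPM, and its difference of -0.33 was -0.15 without AC replicate 1. Birc2, which encodes cIAP1, averaged 20.4 ± 1.10 and 18.2 ± 3.67 TPM. Tab2, which encodes an adaptor of the kinase TAK1, averaged 98.6 ± 9.72 and 90.6 ± 22.6 TPM, and its difference of -0.15 was 0.08 without AC replicate 1. Without that library 8 of the 18 had lower means.

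Brakes on the complex had 13 of 13 members tested, 10 lower and 3 higher. Otulin, the gene of a deubiquitinase that removes linear ubiquitin chains, stood at 187, 173 and 177 TPM in the untreated and at 172, 169 and 132 TPM in the AC libraries. The groups did not overlap, with AC replicate 3 apart from the rest, and the log2 difference of -0.19 ± 0.15 was -0.07 without AC replicate 3. Ubash3b, a phosphatase gene, averaged 25.0 ± 2.94 and 21.6 ± 1.66 TPM. Ikbke, the gene of a kinase that phosphorylates RIPK1 and holds back its death function, averaged 53.9 ± 13.5 and 62.0 ± 5.03 TPM, with untreated replicate 3 lowest at 38.5 TPM, and its difference of 0.23 was 0.01 without that library.

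Death complex and RHIM genes had 12 of 12 members tested, 9 lower and 3 higher. Pgam5, a mitochondrial phosphatase gene, stood at 48.8, 43.1 and 44.3 TPM in the untreated and at 34.5, 42.7 and 38.4 TPM in the AC libraries, without overlap, a log2 difference of -0.24 ± 0.14 (unadjusted p of 0.139 and adjusted p of 1 by limma). Zbp1, an interferon-induced sensor that can activate RIPK3 through its RHIM, averaged 256 ± 21.3 and 227 ± 25.1 TPM. Ticam1, which encodes the RHIM adaptor TRIF, averaged 38.0 ± 5.56 and 33.3 ± 3.44 TPM. Casp8, whose protease holds necroptosis back, lay between 109 and 130.2 TPM in all libraries, above Ripk1, Ripk3 and Mlkl.

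Other ligands and receptors of the TNF superfamily had 18 of 22 members tested, 13 lower and 5 higher. Tnfsf4, the OX40 ligand gene, stood at 2.34, 2.96 and 1.53 TPM in the untreated and at 1.80, 0.398 and 0.859 TPM in the AC libraries. These low values overlapped and had the smallest unadjusted p of the 70 genes, 0.0540, with a log2 difference of -0.73 ± 0.33 (adjusted p of 1 by limma). The difference of Tnfsf4 depended on the scale used for low values: it was -1.25 with a pseudocount of 0.1, -1.29 by limma-voom on recovered reads and -2.18 with sample quality weights (adjusted p of 0.285 by limma). Tnfsf14, which encodes the ligand LIGHT, stood at 15.0, 11.5 and 11.4 TPM in the untreated and at 9.91, 8.56 and 10.8 TPM in the AC libraries, without overlap, a difference of -0.33 ± 0.18 (unadjusted p of 0.105 and adjusted p of 1 by limma). For Tnfsf14 it was -0.21 without untreated replicate 1 and -0.06 between the 2 libraries without placental transcripts. Tnfrsf26, a receptor gene of the superfamily, averaged 21.1 ± 0.965 and 25.8 ± 4.48 TPM. Lta, the neighbour of Tnf on chromosome 17, stayed at or below 0.334 TPM, and Fasl was listed at 0 in all libraries.

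**Figure D5:**
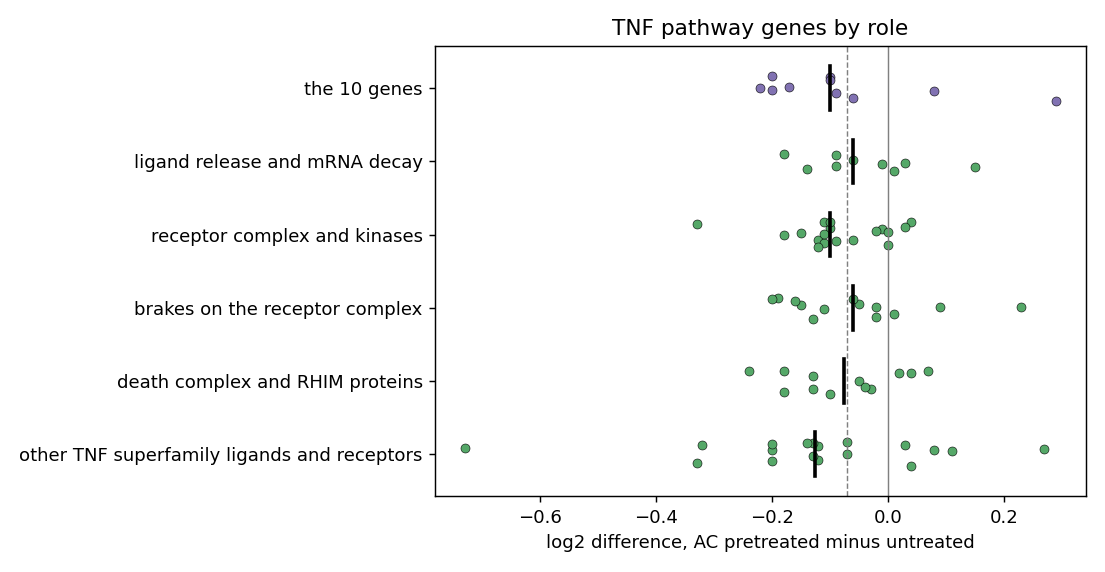
Log2 differences (AC pretreated minus untreated) of the 10 genes and of the tested members of the 5 further lists; each point is a gene, its height within a row is random, and black bars are medians. All medians lie between -0.13 and -0.06, close to the dashed median of all genes, -0.07.

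The genes whose pattern over the 6 libraries was most like that of Tnf were Aurka, Gnai2, Nrm, Pigs and Tprgl, with Pearson correlations of 0.986 to 0.997 on the log2 scale. They are the 5 highest of 8838 named genes of at least 5 TPM, of which 130 were over 0.9. All points share the same 6 libraries, their depth and their composition. Gnai2, for example, stood at 889, 845 and 759 TPM in the untreated and at 812, 773 and 707 TPM in the AC libraries.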

How the data were processed

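The 6 BMDM libraries were made from poly(A) RNA and read as pairs, per the labels' protocols. STAR 2.7.10a, featureCounts 2.0.3, Subread and the build mm10 come from the submitters' processing notes, without role or order. The authors deposited a signal per gene and library that they named TPM. Its columns sum to 54732 to 92831, so each was rescaled to 1000000. Multiplied by merged exon length (GENCODE M21, mm10) and divided by 8.57, the deposited signal gave whole reads in all libraries for 98.4% of 23870 genes (tolerance 0.02 reads). It was therefore a read count per base that had not been scaled for depth. The fit assumed values already in TPM and was otherwise kept. No column was left unused.

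Genes that reached 1 TPM in 3 or more libraries were fitted with limma 3.58.1 in R 4.3.3 (lmFit, eBayes with trend, log2(TPM + 1), group only, 2-sided, Benjamini-Hochberg over 12603 genes). The members, lists and tests were chosen with earlier results of these data known. Of each further list, the 3 genes of smallest p and any whose groups did not overlap at 5 TPM or more were named. Casp8, Lta and Fasl were added after their values were seen. Alternatives changed the pseudocount, filter, scaling or variance model, added a replicate block or left out each library in turn. Models of the placental library sets and voom with sample quality weights were chosen after seeing the data. The fit was tested on simulated data. Promoters are from RefSeq (GRCm38.p6), and all 10 genes matched. Tables and plots were made in Python 3.11.15 with numpy 2.4.6, pandas 2.3.3, matplotlib 3.10.9 and scipy 1.17.1.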

Additional observations from a re-analysis of the deposited data

How the results depend on the processing

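None of the 10 genes had an adjusted p under 0.05 in the 17 alternatives with a test. Traf1 did not pass the filter with the values as deposited and was not tested there. The comparison of the 2 libraries without placental transcripts gives differences and no p. The direction of Tnf (-0.32 to -0.12), Traf2 (-0.35 to -0.05), Mlkl (-0.20 to -0.10) and Tnfaip2 (0.12 to 0.56) held in all 18 alternatives. Settings that changed only the filter or variance trend, or added replicate number or library set as a term, could not change these differences. Their agreement therefore adds no support. On leaving out 1 library the log2 difference ran from -0.35 to 0.02 for Adam17, -0.16 to 0.00 for Tnfrsf1a, -0.21 to 0.02 for Tnfrsf1b, -0.18 to 0.01 for Traf1, -0.21 to 0.08 for Ripk1, -0.09 to 0.17 for Ripk3 and -0.27 to 0.08 for Tab2. Signs also turned with median-of-ratios scaling for Tnfrsf1a (0.01) and with the values as deposited for Ripk3 (-0.01). Between the 2 libraries without placental transcripts they turned for Adam17 (0.10), Tnfrsf1a (0.07), Tnfrsf1b (0.25), Birc2 (0.01), Map3k5 (0.10), Mapkapk2 (0.02), Sppl2b (0.39), Tab2 (0.18), Ticam1 (0.21) and Ubash3b (0.05), and among the 4 with them for Ripk3 (-0.02) and Ikbke (-0.05). Voom with sample quality weights, which gave AC replicate 1 a weight of 0.23 and untreated replicate 2 one of 4.02, turned Ripk1 (0.10) and Tab2 (0.01). It gave 2 of the members an unadjusted p under 0.05, where 11.5% of all genes had one. These were Tnfaip2 (0.56, adjusted p = 0.282 by limma) and Traf2 (-0.35, adjusted p = 0.39 by limma). On leaving out 1 library this count was 0 to 1. The cause of these turns was not tested.

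Over all genes, 2 passed with the values as deposited and 1 without the variance trend. The 164 genes with an unadjusted p under 0.05 became 25 with the values as deposited, 77 at a filter of 5 TPM, 98 by voom, 446 without a filter, 525 among the 4 libraries, 1426 with quality weights, and 97 to 789 on leaving out 1 library. Deviations of same-numbered libraries from their group means had correlations of -0.06, 0.01 and 0.167, against -0.338 to 0.335 for other pairs. Deviations within a group sum to 0, so these values cannot settle whether the numbers mark pairs. Both replicates 3 shared the lack of placental transcripts. With the replicate number as a block 225 genes had an unadjusted p under 0.05 and 0 passed. Such a block leaves each difference, as that of Tnf at -0.22, unchanged. The 10 genes held 270 to 14500 reads per library, and 3 libraries per group limit the precision.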
